A study of Rattus with 8 samples.

Results

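The neuron-enriched miRNAs miR-128, miR-137, miR-138, miR-153 and miR-218 were followed in small RNA libraries from the hippocampus of 9-week-old male Sprague-Dawley rats. The members are the main arms rno-miR-128-3p, rno-miR-137-3p, rno-miR-138-5p, rno-miR-153-3p and rno-miR-218a-5p (rno, for rat, is left out hereafter), together with every other arm or locus form of the same stems that was listed in 4 or more of the 8 libraries. By this rule 10 of the 615 mature miRNAs in the count table are members, comprising 5 main arms and 5 minor arms (miR-128-1-5p, miR-128-2-5p, miR-138-2-3p, miR-153-5p and miR-218a-2-3p). Another 2 arms of these stems fell outside it. These were miR-137-5p, with 3 tags in control 3 and 2 in CPB/DHCA 3, and miR-138-1-3p, with 2 tags in control 4.

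Rats of the CPB/DHCA group underwent normothermic cardiopulmonary bypass (CPB) for 5 min, cooling to 18 °C over 30 min, deep hypothermic circulatory arrest (DHCA) for 30 min and rewarming on bypass for 60 min. Controls were sham-operated, with the same intubation and cannulation but no bypass, cooling or arrest. Tissue was taken 24 h after the procedure, with 4 rats per group and 1 library per rat. The CPB/DHCA libraries come from rats that survived to harvest, and the design cannot separate bypass from cooling or arrest.

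A miRNA precursor is a hairpin from which an arm is loaded onto an Argonaute protein, while its partner arm is mostly degraded. The loaded arm finds its messenger RNA targets chiefly through the seed, bases 2 to 8 from the 5′ end, and lowers their stability and translation. The stems described here are made mainly by neurons in the brain. In mice miR-128 restrains neuronal excitability and miR-137 acts in neuronal differentiation and at synapses. miR-138 limits the size of dendritic spines in rat hippocampal neurons, and miR-153 represses alpha-synuclein in cultured cells. miR-218 is known from the motor neurons of mice.

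The mature sequences of the main arms are shown because the seed defines what each can bind. They are given 5′ to 3′ as the count table has them, with the seed in capitals.
miR-128-3p: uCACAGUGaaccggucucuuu
miR-137-3p: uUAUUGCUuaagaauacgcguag
miR-138-5p: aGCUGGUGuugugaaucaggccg
miR-153-3p: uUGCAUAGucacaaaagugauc
miR-218a-5p: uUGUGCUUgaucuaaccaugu
No seed was shared among these 5, and none of the other names in the table had any of them. No predicted sequence held the first 15 bases of a main arm, so tags of these arms were not split with a predicted name by that measure.

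In RefSeq's annotation of the GRCr8 assembly, all 8 precursors of the members were matched by name. By position alone, Mir128-1 overlaps R3hdm1 and Mir128-2 overlaps Arpp21, which encodes a neuronal phosphoprotein. Mir153 overlaps Ptprn2, which encodes a protein of dense-core vesicles. Mir218-1 and Mir218-2 overlap Slit2 and Slit3, the genes of axon guidance ligands. Mir138-2 overlaps Slc12a3, and Mir137 and Mir138-1 overlap non-coding genes. The main arms of miR-128, miR-138 and miR-218a are identical from both of their precursors, so their counts do not tell the loci apart.

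Total tags ranged from 620133 to 772840 in the control libraries and from 508574 to 672378 in the CPB/DHCA libraries. Levels are given as CPM, which are tags scaled to a library total of 1000000 after TMM scaling factors. Levels of different miRNAs compare their tags and not their molecules, because ligation to the adapters depends on sequence. No count below 2 was listed. An empty cell may therefore stand for 0 or 1 tag, as the handling of single tags is not given, and 0 was used. All 16 miRNAs of a list of other neuronal miRNAs were listed. The same held for the lists of other brain and blood cell types and of liver, so being listed does not by itself check the tissue label. The liver miRNA miR-122-5p had 10.0 CPM at most, and the heart miRNAs miR-208a-3p and miR-208b-3p were not listed. All p values measure the spread between these 8 libraries.

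None of the 10 members passed a fold change of 1.5 with an unadjusted p of 0.05, the thresholds of the study, in the comparison of CPB/DHCA with control. Of all 467 miRNAs tested with edgeR's quasi-likelihood test, 34 (7.28%) passed both, 18 of them higher (3.85%) and 16 lower (3.43%). miR-137-3p came nearest by p, with a level 1.38 times higher in controls (95% interval 1.05 to 1.83). The fold changes of miR-128-3p, miR-138-5p, miR-153-3p and miR-218a-5p had intervals that spanned no change. Adjusted over all miRNAs tested, no member passed (the lowest adjusted p = 0.53, for miR-137-3p), against 1 of 467 (0.214%).

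**Figure D1:**
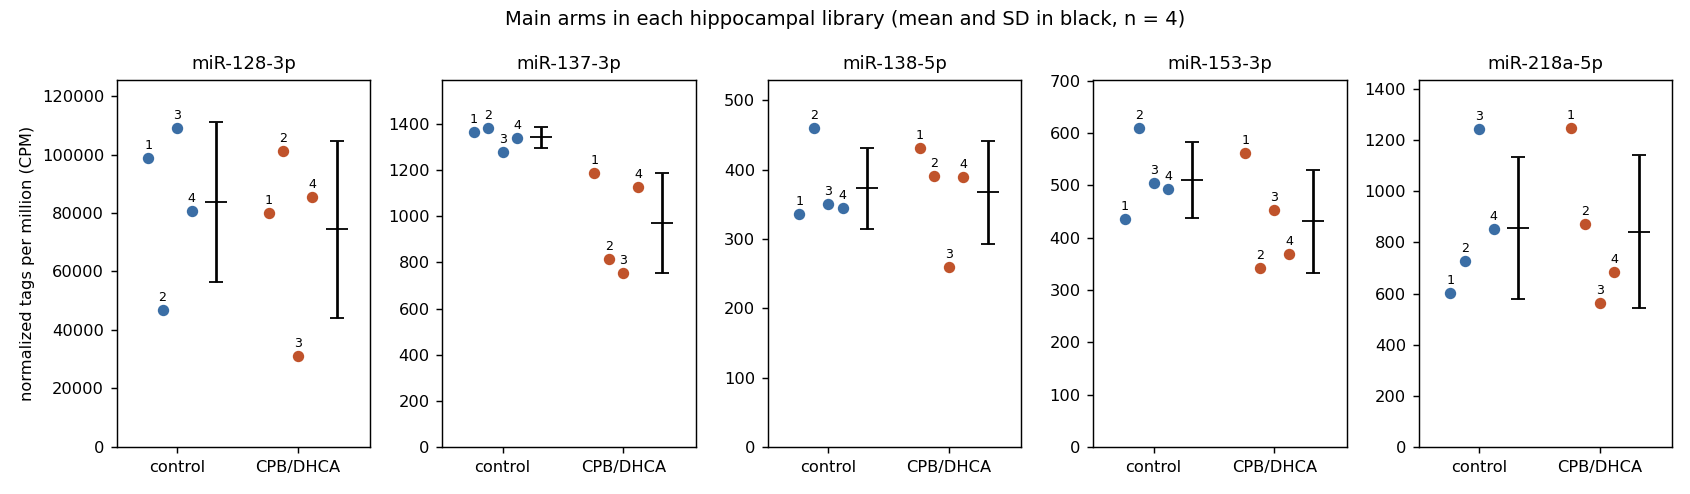
CPM (vertical axis, linear from 0) of the 5 main arms in each library, with the replicate number beside each point and the mean and SD of 4 libraries in black. All 4 CPB/DHCA points of miR-137-3p lie under the lowest control point of 1278 CPM, while the groups of the other 4 arms overlap.

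miR-137-3p was the member whose groups did not overlap. Its CPM were 1367, 1385, 1278 and 1340 in controls 1 to 4 and 1188, 813, 755 and 1125 in CPB/DHCA 1 to 4. The 4 controls lay close together and every CPB/DHCA library was below them, CPB/DHCA 2 and 3 the most. The group means were 1343 ± 46.6 (SD, n = 4) and 970 ± 217.8 (SD, n = 4), 27.7% less after CPB/DHCA. The log2 fold change was -0.47 (standard error, SE, 0.18; unadjusted p of 0.026), and the exact two-sided permutation test gave p = 0.029, the smallest value that 4 libraries against 4 allow. At an unadjusted p of 0.05, miR-137-3p was the 1 of 10 members that passed, beside 39 of all 467 miRNAs (8.35%), 20 of them lower (4.28%). Groups that did not overlap were found for 22 of the 467 (4.71%), of which 11 were lower in the CPB/DHCA group (2.36%).

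The unadjusted p of miR-137-3p rose above 0.05 without control 1, control 2, CPB/DHCA 2 or CPB/DHCA 3, with values of 0.053, 0.057, 0.070 and 0.073. Without CPB/DHCA 3 and control 2 together, 2 libraries in which several members were at an extreme, its log2 fold change was -0.35 (unadjusted p of 0.11). It stayed between -0.56 and -0.35 under all 23 alternatives, in none of which it passed both thresholds. In bulk tissue, fewer neurons and less miRNA per neuron cannot be told apart.

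miR-128-3p was by far the most abundant member. It had 98762, 46658, 109206 and 80665 CPM in controls 1 to 4. In CPB/DHCA 1 to 4 it had 79965, 101105, 31183 and 85429 CPM. Control 2 and CPB/DHCA 3 were low, and the other 6 libraries of both groups shared 1 range. The means were 83823 ± 27439 (SD, n = 4) in controls and 74421 ± 30185 (SD, n = 4) after CPB/DHCA. Its log2 fold change was -0.17 (SE 0.35, 95% interval -0.96 to 0.61), and it turned to 0.09 without CPB/DHCA 3. A change of the 1.5-fold size asked for by the thresholds lies inside that interval in both directions.

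This single miRNA took 3.52% of all listed tags in CPB/DHCA 3 (95% exact interval 3.48 to 3.57) and 10.4% in control 3 (10.3 to 10.5). Intervals of shares cover counting error only. It ranked between 3 and 6 among all miRNAs within each library. The difference between libraries was larger than counting error and larger than for miRNAs of like abundance. The SD of its log2 CPM within groups was 0.665, the median of the 9 non-member miRNAs within a factor of 4 of its mean CPM was 0.141, and none of these 9 had a larger one.

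miR-138-5p, which is enriched in dendrites, had the smallest mean level of the main arms. It had 336, 461, 351 and 345 CPM in controls 1 to 4 and 431, 391, 260 and 389 CPM in CPB/DHCA 1 to 4. Control 2 was the highest library and CPB/DHCA 3 the lowest, with the groups overlapping between them. The means were 373 ± 58.8 (SD, n = 4) and 368 ± 74.3 (SD, n = 4). In the fit of all 8 libraries, the log2 fold change of -0.02 (SE 0.20, 95% interval -0.48 to 0.43) leaves room for changes of less than 1.5-fold only. Without CPB/DHCA 3 and control 2 together, the log2 fold change was 0.22 (SE 0.18). Its sign turned under other scalings, under DESeq2 and without control 2 or CPB/DHCA 3, so that it has no direction in these data.

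miR-153-3p had 435, 610, 505 and 492 CPM in controls 1 to 4. In CPB/DHCA 1 to 4 it had 561, 342, 453 and 368 CPM. CPB/DHCA 2 and 4 lay below every control library, and CPB/DHCA 1 lay above 3 of them. The means were 510 ± 73.2 (SD, n = 4) and 431 ± 98.7 (SD, n = 4), and the log2 fold change was -0.24 (SE 0.20, 95% interval -0.70 to 0.21). It remained below 0 under all 23 alternatives (-0.37 to -0.13), and its unadjusted p was never below 0.11.

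miR-218a-5p had 601, 729, 1244 and 852 CPM in controls 1 to 4. In CPB/DHCA 1 to 4 it had 1250, 873, 564 and 684 CPM. Control 3 and CPB/DHCA 1 stood together at the top, and control 1 and CPB/DHCA 3 at the bottom, so that the groups covered nearly the same range. The means were 856 ± 278 (SD, n = 4) and 843 ± 299.5 (SD, n = 4). The log2 fold change was -0.02 (SE 0.29, 95% interval -0.68 to 0.64), with a sign that turned under DESeq2 and other settings.

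**Figure D2:**
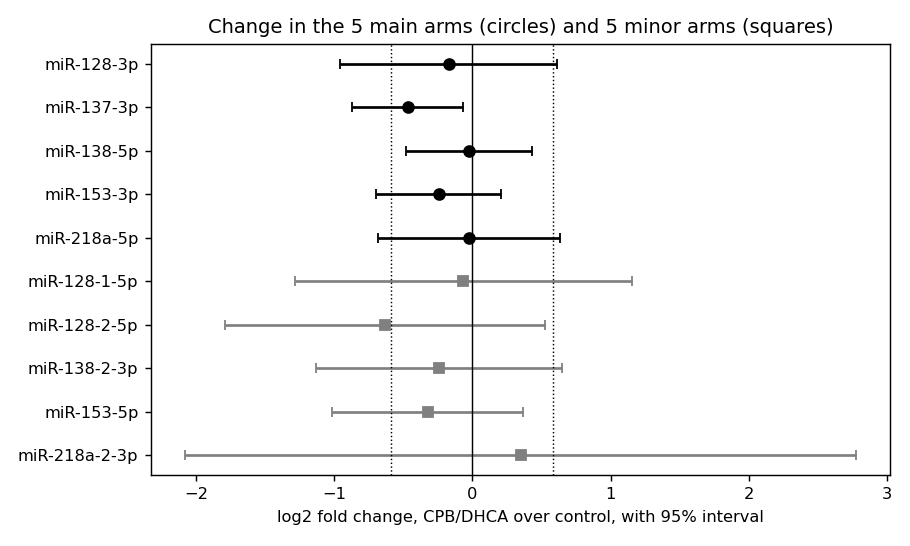
Log2 fold change of CPB/DHCA over control (horizontal axis) with its 95% interval for the 5 main arms (circles) and 5 minor arms (squares), with dotted lines at a 1.5-fold change in either direction. Of these 10 intervals, that of miR-137-3p, from -0.87 to -0.07, is the one that leaves out 0.

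By mean level over all 8 libraries the order was miR-128-3p, miR-137-3p, miR-218a-5p, miR-153-3p and miR-138-5p. The mean CPM of miR-128-3p was 68.4 times that of miR-137-3p and 214 times that of miR-138-5p. Within libraries, miR-137-3p was above miR-218a-5p in 6 of 8, and miR-218a-5p was above miR-153-3p in all 8. miR-138-5p was above miR-153-3p in 2, CPB/DHCA 2 and 4. miR-128-3p was above the other 4 in all 8 libraries.

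As a group, the members had a median log2 fold change of -0.21, beside -0.05 over all 467 miRNAs. Values below 0 were found for 9 of the 10 members and for 278 of the 467 (59.5%), but those of miR-128-3p, miR-128-1-5p, miR-138-2-3p, miR-138-5p and miR-218a-5p turned above 0 under 1 or more of the alternatives. Members of 1 stem come from the same hairpins, so the 10 values are not independent.

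**Figure D3:**
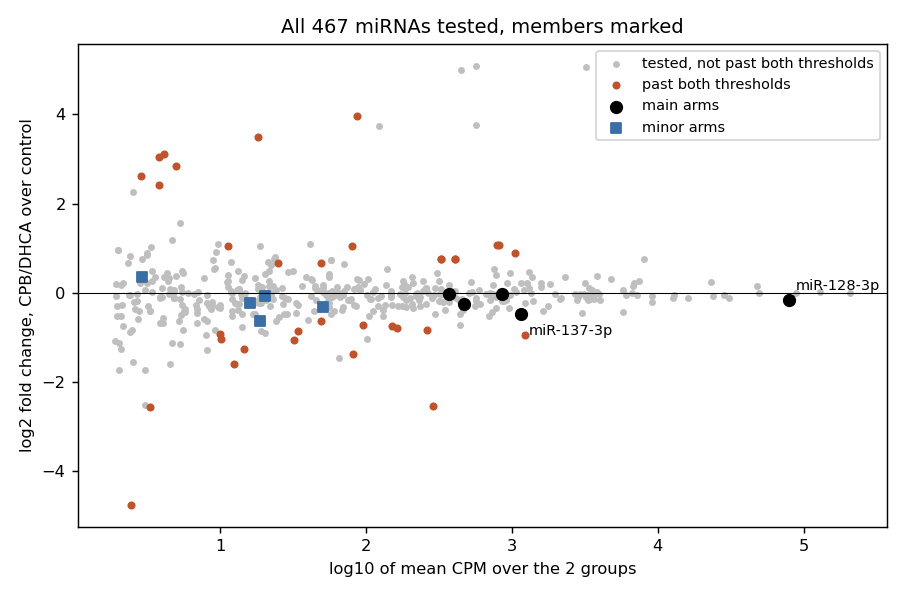
Log2 fold change of CPB/DHCA over control (vertical axis) against log10 of the mean CPM (horizontal axis) for all 467 miRNAs tested, with the 34 past both thresholds in red, main arms as black circles and minor arms as blue squares. The main arms lie between -0.47 and -0.02 on the vertical axis.

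The main arms did not all rise and fall together across rats. A ratio of 2 miRNAs in the same library is free of the scaling between libraries, and 10 such ratios can be formed from the 5 main arms. The widest was that of miR-128-3p to miR-153-3p, which differed 4.29-fold between CPB/DHCA 2 (log2 ratio 8.21) and CPB/DHCA 3 (6.11). The narrowest was that of miR-137-3p to miR-153-3p, which differed 1.88-fold. Each ratio that held miR-128-3p had a wider range than any ratio without it.

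The ratio of miR-137-3p to miR-138-5p was 1 of the 10 whose groups did not overlap. On the log2 scale it was 2.03, 1.59, 1.87 and 1.96 in controls 1 to 4 and 1.46, 1.06, 1.54 and 1.53 in CPB/DHCA 1 to 4. All 4 CPB/DHCA values lay below the lowest control value, that of control 2. The ratios of miR-137-3p to miR-128-3p, miR-153-3p and miR-218a-5p overlapped between the groups. These ratios were formed after the levels of miR-137-3p were known and are a description. They reuse its levels, which already did not overlap between the groups, and so add no separate evidence. The share of such ratios over all miRNAs was not computed.

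The main arms took different places in control 2 and CPB/DHCA 3. Control 2 had the highest level of miR-137-3p, miR-138-5p and miR-153-3p and the second lowest of miR-128-3p. It held the highest level of 79 of all 467 miRNAs (16.9%). CPB/DHCA 3 was alone the lowest library for 7 of the 10 members and for 4 of the 5 main arms, miR-153-3p being the exception. It was alone the lowest for 80 of the 467 (17.1%).

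The lists of other cell types did not share 1 direction in CPB/DHCA 3, the library low in 4 main arms. The summed level of 4 oligodendrocyte miRNAs was 23252 CPM in CPB/DHCA 3, 12308 in CPB/DHCA 1, and between 5361 and 8118 in the other 6 libraries. All 4 of them were listed, and 1 (miR-219a-5p, log2 fold change 1.08, SE 0.40) passed both thresholds. The summed level of 4 astrocyte miRNAs was also highest in CPB/DHCA 3, at 35697 CPM against 25537 to 32514 in the others, and miR-27b-3p, which is not confined to astrocytes, made up 29688 of it. Of the other 3, miR-29a-3p was highest in CPB/DHCA 1, and miR-29b-3p passed both thresholds as lower after CPB/DHCA (log2 fold change -0.78, SE 0.31). The summed level of choroid plexus and ependyma miRNAs was 4126 CPM in control 2 and 3661 in CPB/DHCA 3, the libraries low in miR-128-3p. It was 1178 to 2758 CPM in the others. miR-34c-5p made up 2907 CPM of the sum in control 2 and 2912 in CPB/DHCA 3. The second most abundant of this list, miR-204-5p, was also highest in control 2 (1147 CPM). Its 690 CPM in CPB/DHCA 3 lay below control 1 (1030 CPM) and CPB/DHCA 4 (809 CPM), so the list was not raised as a whole there. CPB/DHCA 3 was the lowest library in the summed levels of microglia and leukocyte miRNAs (641 CPM) and endothelial miRNAs (2036 CPM). It was also the lowest in the sum of the 16 other neuronal miRNAs (170684 CPM), of which miR-9a-5p alone made up 148373 CPM. The part of these cells in the levels of the members was not tested. Without CPB/DHCA 3 the log2 fold change of miR-137-3p was -0.36, and that of miR-153-3p was -0.27.

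Of the 16 other neuronal miRNAs listed, none passed both thresholds in either direction, and their median log2 fold change was -0.05. miR-124-3p, which shapes neuronal identity, had 4433 to 7832 CPM in controls and 2977 to 5688 after CPB/DHCA (log2 fold change -0.43, SE 0.24), with groups that overlapped. For miR-9a-5p the log2 fold change was -0.02 (SE 0.17). Of 4 erythrocyte miRNAs 3 passed both thresholds (miR-451-5p, miR-144-3p and miR-144-5p), all higher after CPB/DHCA. Both miR-144 names are arms of the same stem, so these 3 are not independent. Of these 3, miR-144-3p had 0 to 6.10 CPM in controls (8 tags) and 24.0 to 43.9 after CPB/DHCA (83 tags). Its log2 fold change was 3.5 (SE 0.65), and its groups did not overlap. miR-486 (log2 fold change -0.13, SE 0.23) made up most of the summed CPM, which can hide these rises. The erythrocyte list and the remaining lists gave ranges of summed CPM that overlapped between the groups. They were 649 to 948 in controls and 641 to 861 in CPB/DHCA for 6 miRNAs of microglia and leukocytes, 2105 to 2633 and 2036 to 2487 for 2 of endothelium, 96.9 to 136 and 104 to 190.2 for 4 of erythrocytes, and 1660 to 4126 and 1178 to 3661 for 6 of choroid plexus and ependyma.

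**Figure D4:**
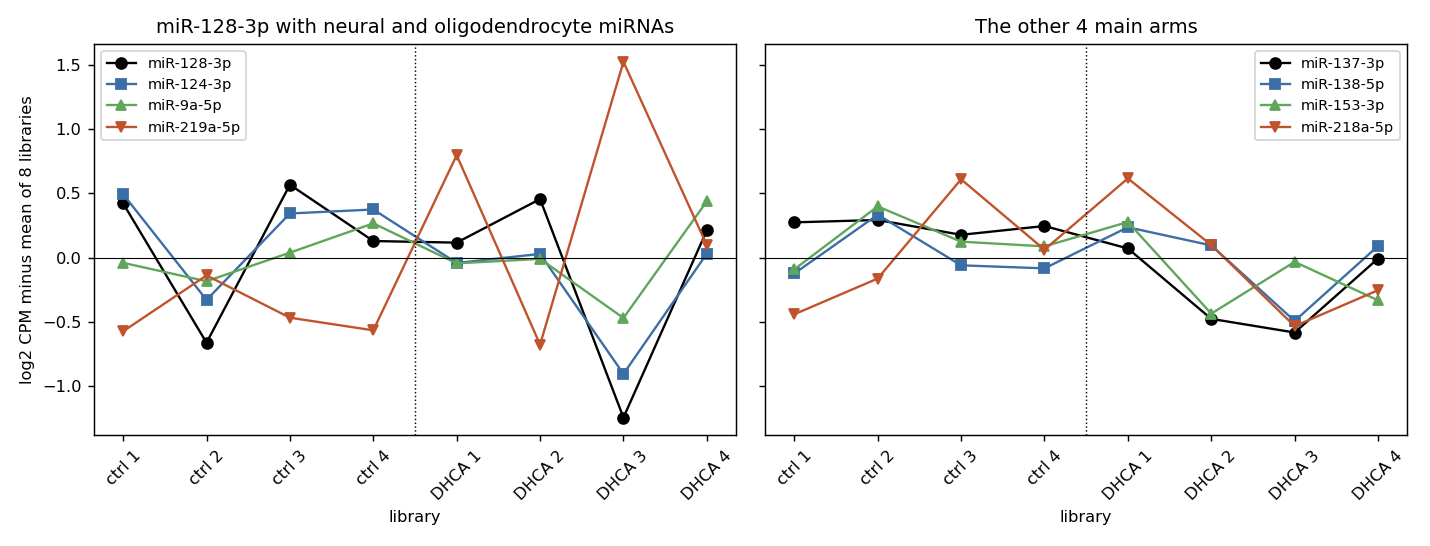
Log2 CPM of each miRNA minus its mean over the 8 libraries (vertical axis) by library (horizontal axis), for miR-128-3p with miR-124-3p, miR-9a-5p and the oligodendrocyte miR-219a-5p on the left and for the other 4 main arms on the right. miR-128-3p falls to -0.66 in control 2 and -1.24 in CPB/DHCA 3, where miR-219a-5p reaches 1.52.

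Among 191 other miRNAs with a mean of at least 100 CPM, those with the most alike profile over the 8 libraries were found by the root-mean-square difference of centred log2 CPM. This measure does not depend on the scaling. For miR-128-3p they were miR-374-3p (0.230) and miR-124-3p (0.269), where the median over the 191 was 0.632. Its distances to the other main arms ran from 0.511 to 0.721. The other main arms were farther from miR-128-3p than miR-124-3p was, at distances around that median. The nearest were picked from 191 miRNAs, while the main arms are few and were not picked. The nearest of so many tend to be closer, so nothing is drawn from this comparison.

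For miR-137-3p the nearest were miR-378a-3p (0.147) and miR-194-5p (0.217), with a median of 0.399. Among main arms, miR-153-3p (0.279) and miR-138-5p (0.294) were nearest to it. For miR-138-5p they were miR-30b-5p (0.173) and miR-493-5p (0.202), and for miR-153-3p miR-323-3p (0.141) and a miRNA predicted by the authors (0.158), with medians of 0.347 and 0.359. For miR-218a-5p they were miR-129-2-3p (0.208) and miR-212-3p (0.247), both on the list of neuronal miRNAs, with a median of 0.481. No main arm came closer than 0.279 to another, but the nearest non-members were picked from 191 and the main arms were not. All these distances are over 8 libraries and share their depth.

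miR-218a-5p varied more than most miRNAs of its abundance, with an SD of log2 CPM within groups of 0.470 against a median of 0.305 for 116 miRNAs, 22 of which had a larger one. miR-137-3p, miR-138-5p and miR-153-3p varied about as much as others of their abundance, with SDs of 0.235, 0.274 and 0.268 beside medians of 0.282, 0.313 and 0.312. For miR-137-3p the SD was 0.05 in controls and 0.33 after CPB/DHCA.

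The minor arms differ between loci and so give a view of single precursors. Those of the 2 miR-128 precursors are shown because they are the only members that tell Mir128-1 and Mir128-2 apart. The 5 bases that differ are in capitals.
miR-128-1-5p: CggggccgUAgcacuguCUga
miR-128-2-5p: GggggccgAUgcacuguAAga
Both were rare, with 104 and 96 tags over all libraries, 0.255 and 0.235 tags per 1000 of miR-128-3p.

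miR-128-1-5p had 15, 6, 20 and 16 tags in controls 1 to 4 and 18, 13, 3 and 13 in CPB/DHCA 1 to 4. miR-128-2-5p had 13, 6, 27 and 16 tags in controls 1 to 4 and 8, 12, 5 and 9 in CPB/DHCA 1 to 4. Both were low in control 2 and CPB/DHCA 3, the libraries low in miR-128-3p. Their log2 fold changes were -0.07 (SE 0.54) and -0.63 (SE 0.52, 95% interval -1.79 to 0.52), and miR-128-2-5p passed both thresholds without control 2 (log2 fold change -0.93, unadjusted p of 0.049, adjusted p = 0.74). Of the tags of both arms, miR-128-1-5p made up 47.9% in controls (57 of 119 tags, 95% exact interval 38.7 to 57.2). Its share was 58.0% after CPB/DHCA (47 of 81 tags, 46.5 to 68.9), with intervals that overlap. These intervals cover counting error of the pooled tags and not the spread between rats. In single libraries the share was 42.6% to 53.6% in controls and 37.5% to 69.2% after CPB/DHCA.

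miR-153-5p, the partner of miR-153-3p, was the most abundant minor arm. It had 42, 56, 49 and 16 tags in controls 1 to 4 and 32, 24, 25 and 28 in CPB/DHCA 1 to 4. Control 4 was below every other library, and the other 3 controls were above all the CPB/DHCA libraries. Its log2 fold change was -0.32 (SE 0.31), and -0.56 without control 4 (unadjusted p of 0.024), still under 1.5-fold.

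miR-138-2-3p, which only Mir138-2 gives, had 11, 17, 15 and 7 tags in controls 1 to 4 and 15, 5, 5 and 11 in CPB/DHCA 1 to 4 (log2 fold change -0.24, SE 0.40). The other locus was represented by the 2 tags of miR-138-1-3p in 1 library, against 86 tags of miR-138-2-3p. miR-218a-2-3p, from the Slit3 locus, had 2, 2 and 3 tags in controls 1, 3 and 4 and 5 and 3 in CPB/DHCA 1 and 4, and was empty in the other 3 libraries. Its log2 fold change of 0.35 (SE 1.08) rests on 15 tags, and it was below 0 with limma on TPM and without control 2 or CPB/DHCA 1.

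Minor arms were set against their main arm in the same library, which asks whether the choice of arm differed between the groups. Over all arm pairs of the table, 7 (5.11%) passed an unadjusted p of 0.05 with limma on log2 ratios and 2 (1.46%) an adjusted one, and none of the 5 pairs of the members did either. miR-153-5p made up 111 tags per 1000 of miR-153-3p in controls and 101 after CPB/DHCA. miR-138-2-3p made up 46.6 and 40.4 tags per 1000 of miR-138-5p, and miR-218a-2-3p 2.88 and 3.87 per 1000 of miR-218a-5p. Over all libraries there were 9.36 tags of miR-153-3p for each tag of miR-153-5p, but 3920 tags of miR-128-3p for each of miR-128-1-5p.

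The differences of the log2 ratios, CPB/DHCA minus control, were 0.07 (SE 0.31) for miR-128-1-5p, -0.26 (0.31) for miR-128-2-5p, -0.28 (0.31) for miR-138-2-3p, 0.04 (0.38) for miR-153-5p and -0.04 (0.92) for miR-218a-2-3p. Exact two-sided permutation tests gave p values from 0.40 to 0.97. Values above 0 were found for 2 of these 5 pairs and for 43.8% of all pairs. In each of the 5 the groups overlapped, as they did in nearly all arm pairs of the table. The intervals were wide, from -0.97 to 0.45 for miR-128-2-5p and from -2.16 to 2.08 for miR-218a-2-3p, and each of the 5 intervals holds a change of 1.5-fold in arm use.

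**Figure D5:**
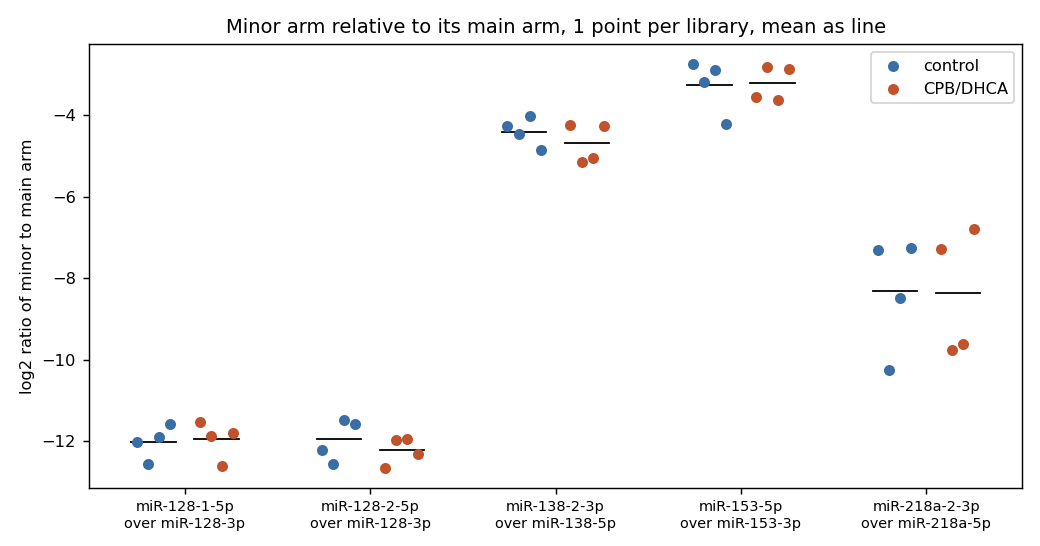
Log2 ratio of each minor arm to its main arm (vertical axis, with 0.5 tags added to both) in the 4 control and 4 CPB/DHCA libraries, 1 point per library with the group mean as a line. Group means differ by -0.28 to 0.07, less than the spread of the points, and the lowest 3 points of miR-218a-2-3p stand for empty cells.

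The first 8 bases of miR-128-3p recur 1 base further in within miR-27a-3p and miR-27b-3p, which are broadly expressed miRNAs. They are shown because the targets of these miRNAs can overlap, with the shared run in capitals.
miR-128-3p: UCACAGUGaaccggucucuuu
miR-27a-3p: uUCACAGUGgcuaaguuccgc
miR-27b-3p: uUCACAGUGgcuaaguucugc
These were the only names in the table whose seed equals that of a main arm shifted by 1 base.

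miR-27b-3p had 20483 to 21507 CPM in controls and 21802 to 29688 after CPB/DHCA. The groups did not overlap, with CPB/DHCA higher (log2 fold change 0.23, SE 0.11, unadjusted p of 0.060, exact two-sided permutation test p = 0.029), and it did not pass the thresholds. For miR-27a-3p the log2 fold change was -0.11 (SE 0.22). For each tag of miR-27b-3p there were 4.59, 2.28, 5.10 and 3.76 tags of miR-128-3p in controls 1 to 4 and 3.21, 4.33, 1.05 and 3.92 in CPB/DHCA 1 to 4. Both were thus at nearly equal counts in CPB/DHCA 3, and the groups overlapped in this ratio.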

How the data were processed

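The authors trimmed adapters with cutadapt 1.9.3 and aligned reads with Novoalign 3.02.12, allowing a mismatch, to precursors of miRBase and to precursors predicted from the pooled reads. Their notes name rn6, and the miRBase release is not given in the sources used here. The deposited counts are raw tag counts on mature miRNAs. The deposited normalized score is the authors' TPM (tags scaled by the aligned tags of each library), rounded to whole numbers, used only as an alternative. A mature name on several lines was used once.

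Counts were analysed with edgeR 4.0.16 (TMM, glmQLFit and glmQLFTest) in R 4.3.3 over 467 miRNAs, namely those summing to 10 counts or more and present in 4 or more libraries, with Benjamini-Hochberg adjustment over all of them. Arm ratios were tested with limma 3.58.1 after adding 0.5 tags. Standard errors are the log2 fold change divided by the root of F. Permutation tests enumerate 70 assignments. Python 3.11.15 and scipy 1.17.1 gave exact binomial intervals. Procedures were tested on simulated data. Replicates of a group differed by more than counting error (chi-square per degree of freedom of at least 10.5).

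Members, lists and tests were chosen with earlier results of these data known. Every member is named, with the 2 most alike non-members of each main arm, the miRNAs whose seed is that of a main arm or 1 base away, and the leading miRNAs of cell-type lists. Alternatives were DESeq2 1.42.0, other scalings and filters, limma on TPM, a robust fit, a replicate block and leaving out libraries.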

Additional observations from a re-analysis of the deposited data

Results flagged for a closer look

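In 30 groups of 4 libraries (10 members and 5 arm ratios in each group), Dixon's test at 95% set 3 libraries apart from the rest of their group, where chance gives about 1 in 20. miR-138-5p had 461 CPM in control 2, against 336 to 351 in the other controls. miR-153-5p had 25.6 CPM in control 4, against 64.1 to 67.9 in the other controls. miR-128-1-5p had 4.28 CPM (3 tags) in CPB/DHCA 3, against 23.1 to 26.4 in the other CPB/DHCA libraries.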

How the results depend on the processing

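With 4 libraries a group, standard errors of the log2 fold change ran from 0.18 to 0.35 for the main arms and from 0.31 to 1.08 for the minor arms. The count of miRNAs past both thresholds moved from 34 to 12 with limma on log2(TPM + 10), to 19 with miRBase miRNAs only, to 19 without CPB/DHCA 3 and control 2 together (chosen after seeing the data), and between 18 (without control 3) and 44 with 1 library left out. The members' count was 0 in all of these fits but that without control 2, where it was 1 (range 0 to 1). The log2 fold change of miR-138-5p turned to 0.017 with DESeq2, 0.019 with RLE factors, 0.0016 without the 5 most abundant miRNAs, 0.037 with at least 10 counts in at least 4 libraries, 0.0040 with empty cells at 1 tag, 0.019 with miRBase miRNAs only and 0.22 without CPB/DHCA 3 and control 2. That of miR-218a-5p turned to 0.017, 0.016, 0.026, 0.0056 and 0.040 with DESeq2, RLE factors, the stricter filter, miRBase miRNAs only and without those 2 libraries. miR-138-2-3p turned to 0.090 without those 2 libraries, and miR-218a-2-3p to -0.10, -0.0030 and -0.63 with limma on TPM plus 1, 10 and 0.1. With 1 library left out, the ranges were -0.36 to 0.089 for miR-128-3p, -0.36 to 0.29 for miR-128-1-5p, -0.49 to 0.0078 for miR-138-2-3p, -0.087 to 0.11 for miR-138-5p, -0.25 to 0.21 for miR-218a-5p and -0.48 to 0.79 for miR-218a-2-3p. Arm pairs passing numbered 4 to 7, and differences of log2 arm ratios ranged from -0.11 to 0.29 for miR-128-1-5p, -0.28 to 0.21 for miR-153-5p and -0.68 to 0.43 for miR-218a-2-3p, the last of which was 0.11 with a pseudocount of 1 tag. The cause of these changes was not tested. Same-numbered libraries correlated at 0.181, -0.0438, -0.0529 and 0.441 as deviations from group means. The best match was the same-numbered library for numbers 1 and 4 and not for 2 and 3. The labels do not say whether the numbers pair the rats, and these mixed values cannot decide it. With the replicate block 31 miRNAs and 0 members passed, miR-137-3p had -0.50, and 10 arm pairs passed. miR-137-3p, miR-153-3p, miR-153-5p and miR-128-2-5p kept their sign in every fit, as did the arm ratios of miR-128-2-5p and miR-138-2-3p. TMM computed without the members, also chosen after seeing the data, changed no member's call.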
